A study of Mus musculus with 6 samples.

Results

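The genes described here are 46 enzymes and regulators of glutathione metabolism and of the response to foreign compounds, chosen by gene symbol from the read table of 6 mouse kidney cell clones. The list holds genes for glutathione breakdown, synthesis and recycling, glutathione peroxidases, glutathione transferases, the NRF2 regulators and targets, aldo-keto and aldehyde enzymes, and the aryl hydrocarbon receptor (AHR) pathway. Of the 46 symbols, 43 had a row among the 20896 transcripts of the table (1 transcript per gene), and 41 passed the filter on low values and were tested. Gclm, Mgst3 and Prdx1 were not found under those symbols and were not analysed here. No measured value entered the list, but it was drawn up with earlier results of the same comparison known, among them the higher Ggt1 in knockout clones. Counts over the list are therefore descriptions and not independent evidence.

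The cells were mpkCCD, a mouse line derived from the cortical collecting duct of the kidney. Total RNA was taken from 3 control clones and from 3 clones whose label is PKA double knockout (dKO), PKA being protein kinase A, the kinase that cyclic AMP switches on. Which genes were edited, and with which guides, is not in the labels. Each clone gave 1 library, so clonal, culture and library differences cannot be told apart. Both groups grew on permeable supports for 4 days in DMEM/F12 with 2% serum, insulin, triiodothyronine, transferrin, 50 nM dexamethasone, 10 ng/mL epidermal growth factor and 60 nM sodium selenite, and then spent 3 days without serum or hormones but with 0.1 nM dDAVP, an agonist of the V2 vasopressin receptor. The comparison asks which transcripts differ between PKA dKO and control clones while dDAVP is present.

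As a check of the labels, Prkaca, a PKA catalytic subunit gene, measured 132.9, 75.8 and 90.6 CPM (assigned reads scaled to library size) in control clones 1 to 3 and 6.65, 8.49 and 7.44 CPM in dKO clones 1 to 3. The recovered libraries held 28596444 to 42515838 reads. A pair of libraries, control clone 1 and dKO clone 3, were unlike the rest: they had 2443 and 2363 transcripts without a read, where the other 4 had 863 to 1045. Results are therefore also given for the other 4 libraries. The 11 measured markers of collecting duct principal cells summed to 1140.0 to 1737.5 CPM in control and 1230.3 to 1340.9 CPM in dKO clones. Of these, 4 had groups that did not overlap, where 5.67% of all genes lay entirely below the controls and 5.15% entirely above. Aqp2 (139.8 to 398.9 CPM in control and 1.82 to 3.39 CPM in dKO clones) passed the adjusted threshold, and 3 did not: Aqp4 (1.18 to 10.85 and 0.1403 to 0.507 CPM) and Avpr2 (51.9 to 62.2 and 44.7 to 50.3 CPM) were below the controls, and Tfcp2l1 (403.4 to 639.2 and 734.7 to 775.9 CPM) was above them. In bulk RNA, fewer cells expressing a gene and less RNA per cell cannot be told apart.

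Glutathione is a tripeptide of glutamate, cysteine and glycine that cells use to reduce peroxides and, through glutathione transferases, to tag reactive compounds for export. Cysteine supply and glutamate-cysteine ligase limit its synthesis, and gamma-glutamyltransferase at the cell surface takes it apart outside the cell so that its amino acids can be taken up again. The transcription factor NRF2, held low by KEAP1 and released by oxidants and electrophiles, binds antioxidant response elements (ARE) in many of these genes, while AHR binds xenobiotic response elements (XRE) in others. Several of these enzymes, Ggt1 among them, are abundant in the proximal tubule of the kidney.

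Promoter windows from RefSeq (build GRCm38.p6, 250 bases before to 50 bases after the start site) matched the listed transcript start within 50 bases for 30 of the listed genes. The letters TGACNNNGC, the ARE core, were searched on both strands and found in 7 of the 30 windows (23.3%), and in 12.4% of all 32851 windows of the same length. The letters GCGTG, the XRE core, were found in 12 of the 30 (40%), and in 32.4% of all windows. The 4 windows below belong to Ggt1, the gene that rose in dKO clones, and to the 3 genes with lower levels in dKO clones (unadjusted p under 0.05) that hold an ARE core. They are printed 5′ to 3′ on the strand of the gene with the ARE core in capitals. In Gsta3 the core reads on the printed strand, and in Ggt1, Txnrd1 and Akr1c19 it reads on the opposite strand.
Ggt1 (chr10:75568412-75568711, plus strand): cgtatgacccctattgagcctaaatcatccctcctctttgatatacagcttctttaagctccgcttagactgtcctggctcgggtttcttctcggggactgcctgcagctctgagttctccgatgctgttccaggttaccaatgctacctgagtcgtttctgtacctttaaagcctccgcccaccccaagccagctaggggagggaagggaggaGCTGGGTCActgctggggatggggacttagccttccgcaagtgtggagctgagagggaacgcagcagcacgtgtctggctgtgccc
Gsta3 (chr1:21240335-21240634, plus strand): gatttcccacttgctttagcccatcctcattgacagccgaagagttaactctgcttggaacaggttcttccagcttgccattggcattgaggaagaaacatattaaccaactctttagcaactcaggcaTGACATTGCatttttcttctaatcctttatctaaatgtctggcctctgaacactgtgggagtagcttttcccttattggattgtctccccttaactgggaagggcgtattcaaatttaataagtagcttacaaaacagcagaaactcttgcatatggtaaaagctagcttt
Txnrd1 (chr10:82858956-82859255, plus strand): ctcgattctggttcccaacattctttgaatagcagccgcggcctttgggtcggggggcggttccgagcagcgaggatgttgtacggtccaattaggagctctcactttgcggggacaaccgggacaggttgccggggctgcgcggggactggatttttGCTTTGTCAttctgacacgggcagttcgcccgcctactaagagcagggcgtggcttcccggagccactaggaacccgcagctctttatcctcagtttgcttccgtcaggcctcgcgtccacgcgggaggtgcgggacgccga
Akr1c19 (chr13:4233490-4233789, plus strand): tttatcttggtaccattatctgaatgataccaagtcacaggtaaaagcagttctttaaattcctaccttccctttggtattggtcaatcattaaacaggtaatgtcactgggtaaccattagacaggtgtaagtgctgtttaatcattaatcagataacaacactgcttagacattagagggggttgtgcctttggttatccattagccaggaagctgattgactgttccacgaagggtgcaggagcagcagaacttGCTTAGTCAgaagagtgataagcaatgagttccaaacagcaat

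Counting the start site as 0, the first base of the core lay at position -36 in Ggt1, -121 in Gsta3, -92 in Txnrd1 and 7 in Akr1c19. The other windows with an ARE core belonged to Gstm5 (position -42), Nfe2l2 (-240) and Srxn1 (28). In Gstm5 an XRE core on the opposite strand overlaps the ARE core, at position -38. Txnrd1 and Srxn1 also hold XRE cores, whereas the printed windows of Ggt1, Gsta3 and Akr1c19 hold none. Of the 8 genes with a window and a lower level in dKO clones at an unadjusted p under 0.05, 3 held an ARE core and 2 an XRE core, Txnrd1 and Osgin1. Ggt1 is known to use several alternative promoters, and the window covers the listed start alone. A match of these letters is a description and not a bound site, and windows without one say nothing of binding elsewhere.

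Of the 41 tested genes, 1 was higher in dKO clones at an adjusted p under 0.05, Ggt1, and 0 were lower. Over all 16683 genes tested, 0.168% passed that threshold, 0.0539% higher and 0.114% lower. At an unadjusted p under 0.05, 1 listed gene was higher and 12 were lower, where the same shares over all genes were 2.4% and 3.84%. The 3 dKO values lay entirely above the 3 control values for 1 gene and entirely below for 10, against 5.15% and 5.67% of all genes. The fitted log2 fold change (dKO minus control) was negative for 31 of the 41 and for 50.2% of all genes, and its median was -0.13 over the list and -0.0015 over all genes. Other tests on the recovered whole reads moved the count of lower calls: edgeR's quasi-likelihood test called 2 listed genes in all, Ggt1 and Gstt2 (0.168% of all genes), limma-voom called 3 (0.156%) and DESeq2 called 1 higher and 7 lower (0.45% and 1.14%).

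**Figure D1:**
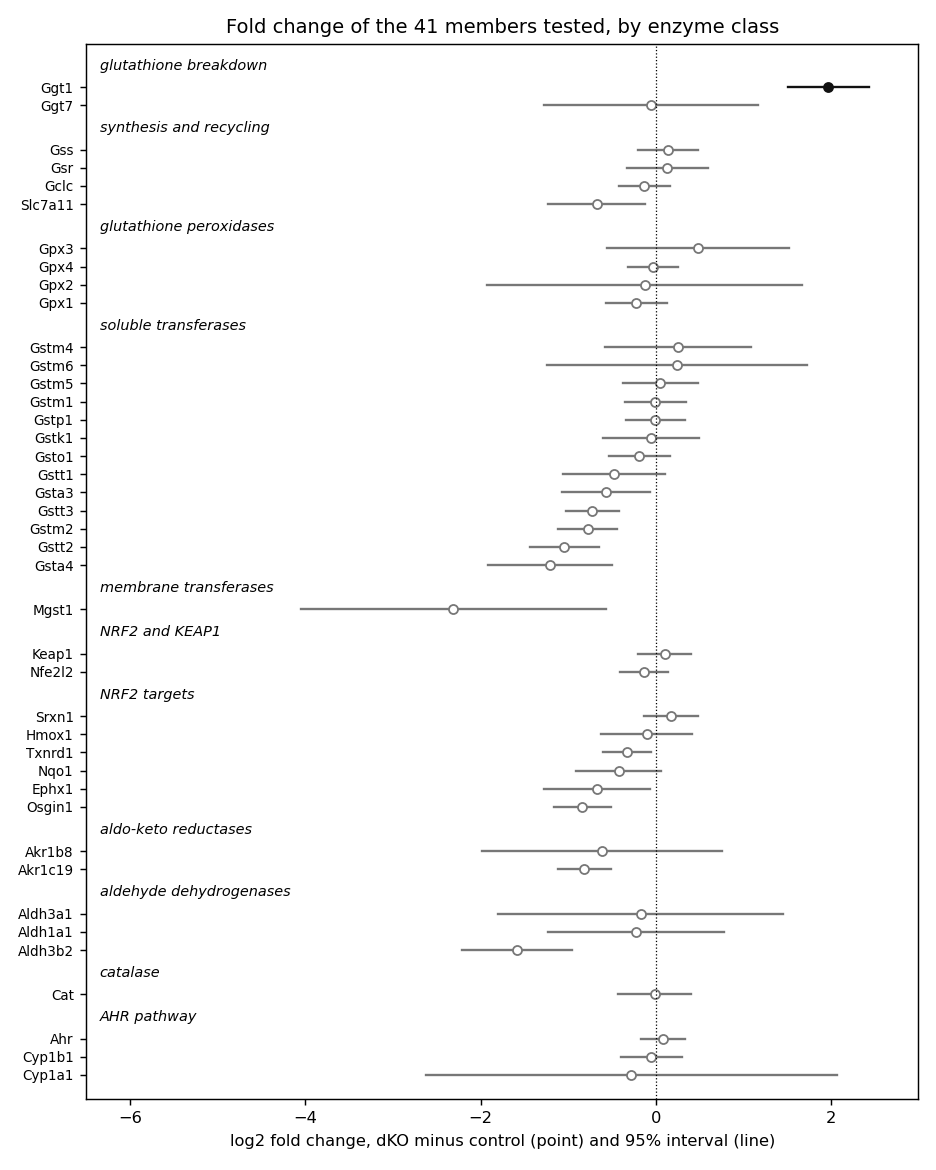
Fitted log2 fold change (x axis, dKO minus control) of the 41 genes tested, grouped by enzyme class, with 95% intervals as lines. The filled point, Ggt1 at 1.97, is the only one past the adjusted threshold, and the 12 other intervals clear of 0 all lie at negative values, among them 5 soluble transferases, 3 NRF2 targets, Akr1c19 and Aldh3b2.

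The transcript of the enzyme that degrades glutathione outside the cell was higher in the knockout clones. Ggt1, gamma-glutamyltransferase 1, measured 10.9, 16.8 and 9.56 CPM in control clones 1 to 3 and 49, 41.8 and 52.2 CPM in dKO clones 1 to 3, which rest on 395 to 514 and 1319 to 1968 reads. Every dKO clone lay above every control clone, including both libraries that stand apart. The mean went from 12.4 ± 3.86 to 47.7 ± 5.35 CPM (SD, n = 3), a 3.92-fold difference with a 95% interval of 2.85 to 5.39 and a limma adjusted p of 0.003134. On the log2 scale the difference was 1.97 over all 6 libraries (SE 0.21), 1.83 in the 4 libraries without the pair that stands apart, and 2.25 within that pair (dKO clone 3 minus control clone 1). It kept its call in all 20 alternative settings, with adjusted p between 1.945e-14 and 0.02591. The listed Ggt1 transcript (ENSMUST00000134503.7 of gene ENSMUSG00000006345.10) has 14 exons at chr10:75568656-75586200 on the plus strand. None of its 50-base windows occurs in an annotated transcript of another gene.

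In the kidney, Ggt1 is known chiefly from the proximal tubule. The 11 measured proximal tubule markers summed to 9.21 to 21.5 CPM in control and 12.0 to 19.3 CPM in dKO clones, and 0 of the 10 tested passed the threshold. Their fold change was positive for 2 of the 10 and negative for 8, with a median log2 of -0.17. The glucose transporter gene Slc5a2 was the 1 marker whose groups did not overlap, where 5.15% of all genes lay entirely above the controls. It measured 4.21, 4.32 and 5.07 CPM in control and 5.65, 5.83 and 6.51 CPM in dKO clones (log2 0.40, limma adjusted p = 0.9541). Cubn, the cubilin gene, lay at 2.66 to 5.73 CPM over the 6 libraries, the phosphate transporter gene Slc34a1 at 0.277 to 1.83 CPM, and Kap at 0 in control clone 1 and at most 0.158 CPM elsewhere. Their part in the Ggt1 difference was not tested. Ggt7, a relative of Ggt1, was low in all clones (0.609 to 2.06 CPM in control and 0.758 to 1.65 CPM in dKO), and the groups overlapped.

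In glutathione synthesis and recycling 0 of the 4 measured genes passed the adjusted threshold, and Slc7a11 was the 1 whose groups did not overlap. It lay entirely below the controls, as did 5.67% of all genes. Slc7a11, the cystine-glutamate exchanger that supplies cysteine, measured 41.2, 48.8 and 93.5 CPM in control and 32.3, 36.9 and 38.9 CPM in dKO clones. Control clone 3 was far above the other 2 controls, which lay closer to the dKO clones. The log2 difference was -0.67 (SE 0.25, limma adjusted p = 0.6075), and it was -0.32 without control clone 3. In the 4 libraries left after setting aside the 2 that stand apart, which keep control clone 3, it was -0.97 with an adjusted p of 0.01608.

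Gclc, the catalytic subunit of glutamate-cysteine ligase, which limits the rate of synthesis, ranged from 108.0 to 137.8 CPM in control and from 102.9 to 111.4 CPM in dKO clones. Its log2 fold change of -0.13 had a 95% interval of -0.42 to 0.16. Gss, glutathione synthetase, ranged from 31.8 to 35.2 CPM and from 31.0 to 44.2 CPM, at 0.14 (interval -0.20 to 0.48). Neither gene passed the test, and both intervals leave out a change of 1.5-fold. Gsr, the reductase that regenerates glutathione, had the highest level per length of this class, at 84.5 ± 28.2 RPKM (CPM per kilobase of transcript; SD, n = 3) in control clones. It measured 296.2, 146.9 and 227.9 CPM in control and 234.9, 237.9 and 234.2 CPM in dKO clones. The 3 dKO clones lay close together inside the wide control range, and the log2 difference of 0.13 became -0.14 without control clone 2.

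The selenium-dependent peroxidases overlapped between the groups. Gpx4, which reduces lipid hydroperoxides, led its class per length with 186.7 ± 18.6 RPKM in control and 182.8 ± 13.9 RPKM in dKO clones (SD, n = 3). It measured 156.1, 183.8 and 188.7 CPM in control and 180.5, 157.4 and 179.9 CPM in dKO clones, a log2 difference of -0.03 (95% interval -0.31 to 0.26). Gpx1, the main cytosolic form, ranged from 139.6 to 187.6 CPM in control and from 115.2 to 158.9 CPM in dKO clones. Both groups had the same selenite supplement during growth, and these enzymes contain selenium. An effect of the supplement on these transcript levels was not tested. Gpx3, the secreted form, stayed at 0.760 to 1.67 CPM and Gpx2 at 0.168 to 0.982 CPM over all 6 clones. Gpx4 shares 68.9% of its 50-base windows with pseudogenes, so the assignment of its reads is uncertain.

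Soluble glutathione transferases had the highest summed level of the classes, and their class also held the most genes. The 14 soluble transferase genes summed to 1536.0 to 1699.9 CPM in control and 1194.9 to 1453.6 CPM in dKO clones, and the 2 ranges did not overlap. That separation rests on Gstm2: without it the sums were 1083.3 to 1229.8 CPM and 916.9 to 1125.6 CPM, which overlap. Of the 13 tested, 10 had a negative fold change, 4 lay entirely below the controls, and 0 passed the adjusted threshold. Over all genes 50.2% were negative and 5.67% lay entirely below. The median log2 fold change was -0.19. The 4 genes below the controls came from the mu (Gstm2), theta (Gstt2, Gstt3) and alpha (Gsta4) families, and the other 9 tested overlapped between groups.

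Gstm2, of the mu family, measured 470.1, 491.9 and 452.7 CPM in control and 227.7, 277.9 and 328.1 CPM in dKO clones. Its control values lay close together and above every dKO value. The mean went from 471.6 ± 19.6 to 277.9 ± 50.2 CPM (SD, n = 3), a log2 difference of -0.78 (SE 0.15, limma adjusted p = 0.1111). Gstm1, the neighbouring gene, led the class by mean per length over all clones (436.8 RPKM, and 357.9 RPKM for Gstm2). In control clones alone Gstm2 was higher, at 450.4 ± 18.8 RPKM against 436.3 ± 42.2 RPKM for Gstm1. Gstm1 measured 546.8, 612.2 and 505.8 CPM in control and 583.8, 467.5 and 617.4 CPM in dKO clones. Its log2 difference was -0.0024 with a 95% interval of -0.35 to 0.34, and its sign changed with the scaling. Gstm5 (9.56 to 13.4 CPM), Gstm4 (1.77 to 3.80 CPM) and Gstm6 (0.304 to 0.887 CPM) also overlapped between groups. Gstm2 shares 9.36% of its 50-base windows with other transcripts, most with Gm12499 and Gm6665. Gstm1 shares 23.1%, most with Gstm2-ps1 and Gstm3. Reads of each gene may therefore be split with those transcripts.

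The theta family lies beside Ggt1. Gstt2 measured 15.2, 19.0 and 16.6 CPM in control and 7.74, 8.77 and 7.94 CPM in dKO clones. The groups were well apart, the log2 difference was -1.04 (SE 0.18), and the limma adjusted p was 0.06044. Gstt3 measured 87.7, 87.0 and 78.2 CPM in control and 45.0, 49.8 and 59.2 CPM in dKO clones, with a log2 difference of -0.72 (SE 0.14, adjusted p = 0.1039). Both were lower in every dKO clone than in any control clone, though neither passed the threshold. Gstt1 ranged from 12.8 to 17.2 CPM in control and from 7.29 to 15.8 CPM in dKO clones, with dKO clone 3 inside the control range. Gstt3 shares 26% of its windows with the annotated transcript Gm20441, and Gstt1 and Gstt2 share none.

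In the alpha family, Gsta4, an enzyme that conjugates the lipid peroxidation product 4-hydroxynonenal, measured 38.0, 22.0 and 13.6 CPM in control and 12.2, 9.63 and 7.75 CPM in dKO clones. The groups did not overlap, but the lowest control and the highest dKO clone were close. Its log2 difference was -1.21 (SE 0.32, limma adjusted p = 0.2806), -0.67 in the 4 remaining libraries and -2.29 between dKO clone 3 and control clone 1. Without control clone 3 it passed the threshold, at -1.57 (adjusted p = 0.04204; 0.192% of all genes passed in that fit). Gsta3 measured 58.9, 67.1 and 80.4 CPM in control and 36.3, 38.6 and 69.8 CPM in dKO clones. Here dKO clone 3 sat among the controls, while dKO clones 1 and 2 lay below them. The log2 difference was -0.57 over 6 libraries (adjusted p = 0.6836), -0.97 over the 4 remaining libraries (adjusted p = 0.0003583) and 0.25 between dKO clone 3 and control clone 1. Gsta2 was under the filter in all libraries, at 0.0277 to 0.229 CPM.

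Transferases of the remaining families did not pass the test. Gstp1, of the pi family, ranged from 66.8 to 92.2 CPM in control and from 72.3 to 90.9 CPM in dKO clones. Gsto1, an omega enzyme that acts as a reductase, ranged from 253.4 to 353.0 CPM and from 235.7 to 292.4 CPM. Gstk1, the kappa form, ranged from 5.31 to 7.11 CPM and from 4.78 to 7.21 CPM. The 95% intervals of their log2 differences were -0.34 to 0.33, -0.54 to 0.16 and -0.61 to 0.50. Gstp1 shares 62.3% of its windows with Gstp2 and a pseudogene.

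The membrane-bound transferases were close to the detection limit. Mgst1 measured 0.719, 0.556 and 2.65 CPM in control and 0.224, 0.0950 and 0.196 CPM in dKO clones. All dKO values lay below all control values, and control clone 3 was the highest. The log2 difference was -2.31 (SE 0.79, limma adjusted p = 0.5107) and was -1.65 without control clone 3. Mgst2 was under the filter, at 0.0317 to 0.164 CPM.

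**Figure D2:**
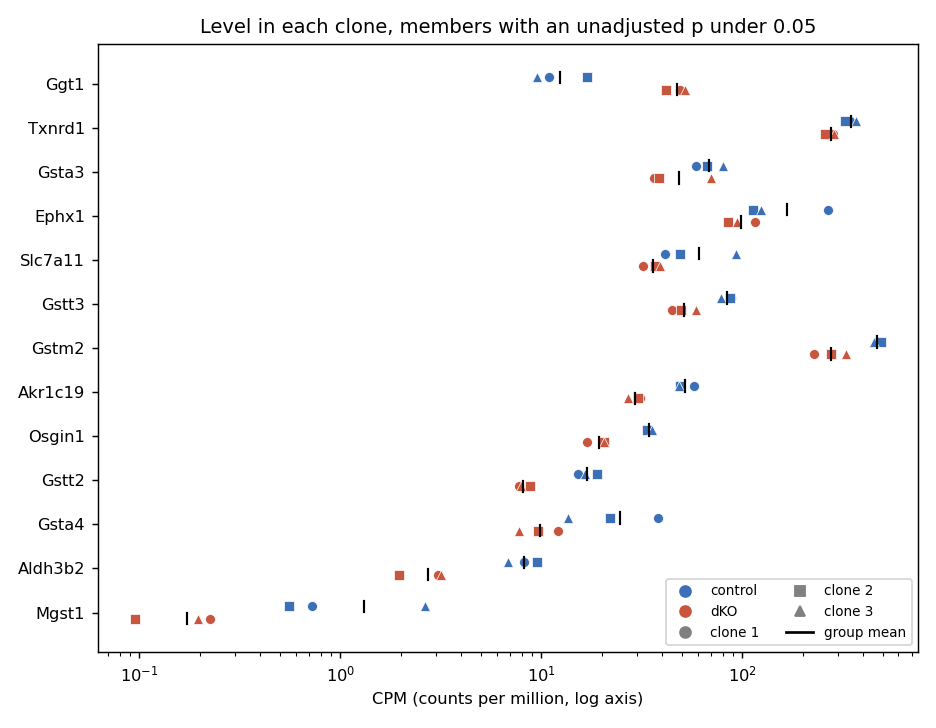
Level of each of the 13 genes with an unadjusted p under 0.05 in the 6 clones (x axis, CPM on a log axis), blue for control and red for dKO, with the symbol giving the clone number and a black bar the group mean. All red points lie below the blue ones for 10 genes and above them for Ggt1, while the groups overlap for Gsta3 (dKO clone 3 at 69.8 CPM) and Ephx1 (dKO clone 1 at 115.5 CPM).

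The regulators of the pathway did not pass the test. Nfe2l2, which encodes NRF2, measured 253.2, 208.6 and 220.4 CPM in control and 200.8, 210.6 and 209.1 CPM in dKO clones. The log2 difference was -0.13 with a 95% interval of -0.41 to 0.14. Keap1, its inhibitor, ranged from 80.8 to 103.8 CPM in control and from 89.2 to 103.5 CPM in dKO clones (interval -0.20 to 0.41). These are transcript levels, whereas NRF2 is controlled mainly through the stability of its protein, which was not measured here.

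The NRF2 targets varied in how far their groups lay apart. The 6 genes summed to 601.1 to 831.7 CPM in control and 497.9 to 569.7 CPM in dKO clones, but without Txnrd1 the sums overlapped (274.2 to 487.6 and 240.2 to 284.7 CPM). In this class 5 of the 6 had a negative fold change, 2 lay entirely below the controls, and 0 passed the adjusted threshold. The shares over all genes were 50.2% negative and 5.67% entirely below. Osgin1, an oxidative-stress-induced growth inhibitor, measured 34.0, 33.6 and 35.5 CPM in control and 16.9, 20.6 and 20.4 CPM in dKO clones. Its controls varied least of all listed genes at 2 CPM or more, with a coefficient of variation of 2.95%, and the groups were clearly separate. The mean went from 34.4 ± 1.01 to 19.3 ± 2.10 CPM (SD, n = 3), a log2 difference of -0.84 (SE 0.15, limma adjusted p = 0.06044).

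Txnrd1, the selenoenzyme thioredoxin reductase 1, led this class per length (102.4 ± 6.38 RPKM in control clones). It measured 344.1, 326.8 and 369.8 CPM in control and 284.6, 257.8 and 285.1 CPM in dKO clones, so the groups were separate by a small margin (log2 difference -0.33, adjusted p = 0.6189). Ephx1, microsomal epoxide hydrolase, measured 267.0, 113.3 and 123.5 CPM in control and 115.5, 85.0 and 94.5 CPM in dKO clones. Control clone 1 stood far above the other 5 clones, and the log2 difference of -0.67 became -0.28 without it.

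Nqo1, the quinone reductase often used as an NRF2 reporter gene, ranged from 69.6 to 124.8 CPM in control and from 62.9 to 92.7 CPM in dKO clones, with an interval of the log2 difference of -0.91 to 0.07. Hmox1, heme oxygenase 1, ranged from 8.54 to 14.1 CPM and from 8.93 to 13.2 CPM. Srxn1, which reactivates oxidised peroxiredoxins, ranged from 47.7 to 54.6 CPM and from 51.6 to 67.0 CPM, and was the single target with a positive fold change (0.18, interval -0.14 to 0.49). None of these 3 passed the test.

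Both aldo-keto reductases had lower means in dKO clones. Akr1c19, the most abundant of them per length (42.4 ± 4.14 RPKM in control clones), measured 57.7, 49.3 and 48.7 CPM in control and 30.9, 30.3 and 27.1 CPM in dKO clones. The groups were clearly separate, and the log2 difference was -0.81 (SE 0.14) with a limma adjusted p of 0.05237, just outside the threshold. Removing the chromosome medians of each library gave -0.89 (limma adjusted p = 0.02531), in a fit that called 21 genes in all. Akr1c19 passed in 10 of the 20 alternative settings, and in 1 of the fits that left out 1 library. On the deposited FPKM its limma adjusted p was 0.7096. Akr1b8 was variable in both groups, at 8.27, 2.19 and 5.55 CPM in control and 2.59, 1.298 and 8.14 CPM in dKO clones.

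Among the aldehyde dehydrogenases, 1 of the 3 lay entirely below the controls, as did 5.67% of all genes. Aldh3b2 measured 8.22, 9.52 and 6.84 CPM in control and 3.06, 1.96 and 3.17 CPM in dKO clones, which rest on 291 to 297 and 62 to 123 reads. No dKO clone reached the level of a control clone. The difference was 3.00-fold with a 95% interval of 1.94 to 4.62 (log2 -1.58, limma adjusted p = 0.07473). Aldh3b2 shares 24.2% of its windows with Aldh3b3 and Aldh3b1. Aldh1a1, a retinaldehyde-oxidising enzyme and the highest of the class by mean per length over all clones, measured 11.6, 3.57 and 7.83 CPM in control and 8.69, 3.14 and 7.49 CPM in dKO clones. The clones of both groups spread widely and overlapped. Aldh3a1 stayed at 0.249 to 1.05 CPM.

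Catalase and the AHR genes overlapped between groups. Cat measured 97.8, 61.8 and 57.4 CPM in control and 76.2, 69.9 and 63.6 CPM in dKO clones, with control clone 1 the highest. Its log2 difference was -0.01 over 6 libraries and 0.29 over the 4 remaining ones, neither past the threshold. Ahr measured 106.7, 105.7 and 118.0 CPM in control and 116.1, 116.5 and 117.6 CPM in dKO clones, a log2 difference of 0.09 with a 95% interval of -0.17 to 0.34. Its target Cyp1b1 ranged from 26.6 to 36.5 CPM in control and from 27.2 to 32.1 CPM in dKO clones. Cyp1a1, the classic AHR-induced gene, stayed under 1 CPM in all 6 libraries (0.0277 to 0.990 CPM).

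**Figure D3:**
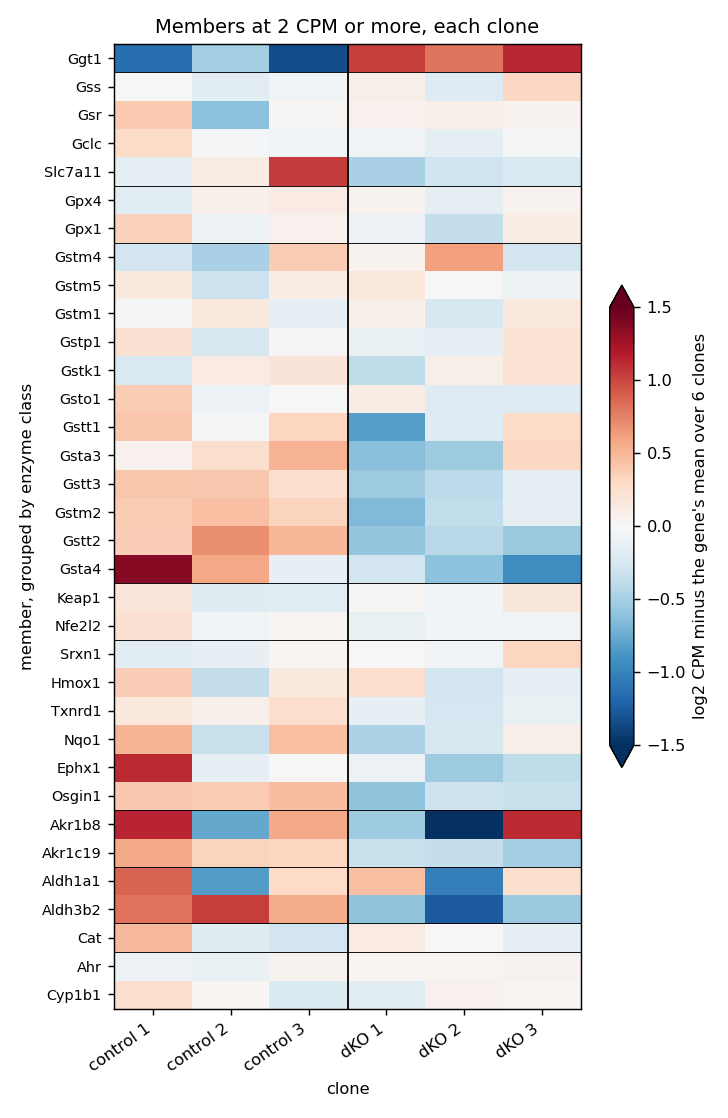
Deviation of each gene at 2 CPM or more from its own mean over the 6 clones (colour, log2 CPM), with clones in columns and genes in rows grouped by class. Ggt1 runs from blue in controls to red in dKO clones, and Gstt3, Gstm2, Gstt2, Osgin1, Akr1c19 and Aldh3b2 run the other way, while Akr1b8 and Aldh1a1 vary within both groups.

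The 2 libraries that stand apart often held the highest value of their group for these genes. The same was not counted over all genes, and an effect on the spread was not tested. Among the 41 tested, control clone 1 held the highest control value for 20 and dKO clone 3 the highest dKO value for 19. Of the 7 tested genes under 2 CPM, 5 were lowest in control clone 1 among controls and in dKO clone 3 among dKO clones. Over the 34 genes at 2 CPM or more the median coefficient of variation was 15.6% in control and 13.6% in dKO clones. Over the 4 remaining libraries, limma called 1 listed gene higher (1.69% of all genes) and 8 lower (1.71%): Slc7a11, Gsta3, Gstm2, Gstt2, Gstt3, Osgin1, Akr1c19 and Aldh3b2. That fit sets 2 clones against 2. Without control clone 1 alone, 7 listed genes were called (0.827% of all genes): Ggt1 and, lower, Gstt2, Akr1c19, Osgin1, Gstm2, Gstt3 and Aldh3b2, these 6 with adjusted p of 0.02253 to 0.04958. Gsta3 and Gsta4 thus differ in which libraries carry them, Gsta3 in dKO clones 1 and 2 and Gsta4 most in control clone 1.

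The authors' deposited table of edgeR results lists 33 of the genes, of which 9 have a false discovery rate (FDR) under 0.05, 1 higher and 8 lower. Over its 10190 rows, 0.981% were higher and 2.49% lower at that threshold. In the authors' deposited table Ggt1 has a log2 fold change of 1.90 (FDR 5.03e-14), Aldh3b2 of -1.62 (FDR 3.45e-06), Gstm2 of -0.79 (FDR 8.61e-06) and Akr1c19 of -0.83 (FDR 1.49e-05). In the same authors' deposited table Gstt3, Osgin1, Gstt2, Gsta4 and Ephx1 also pass, with FDR from 5.42e-05 to 0.03557, and Slc7a11 falls just outside (FDR 0.05041). These are the same libraries tested in another way, so the 2 sets of calls are not independent.

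A longer list of 113 further genes of these pathways was read alongside, of which 100 were in the table and 97 were tested. At the adjusted threshold 0 passed, in either direction. At an unadjusted p under 0.05, 1 was higher and 12 lower (2.4% and 3.84% of all genes). edgeR's quasi-likelihood test called 0 (0.168% of all genes), DESeq2 called 0 higher and 3 lower (0.45% and 1.14%), and the 4-library fit called 1 higher and 7 lower (1.69% and 1.71%). The fold change was positive for 42 and negative for 55, with a median of -0.018. Of the 97, 2 lay entirely above and 15 entirely below the controls, against 5.15% and 5.67% of all genes. The 6 with the lowest p were lower in dKO clones, and none of their groups overlapped. They were picked by that p, so their separation is no further evidence.

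Abcc3, an exporter of glucuronide and glutathione conjugates, measured 44.5, 34.2 and 27.7 CPM in control and 19.8, 15.04 and 9.51 CPM in dKO clones (log2 -1.30, limma adjusted p = 0.1126). Cth, which makes cysteine from cystathionine, measured 25.1, 25.9 and 28.1 CPM in control and 19.1, 14.8 and 8.81 CPM in dKO clones (log2 -0.95, adjusted p = 0.26). Hagh, a glyoxalase that releases glutathione, measured 55.6, 52.0 and 60.8 CPM in control and 38.5, 40.6 and 45.5 CPM in dKO clones (log2 -0.44, adjusted p = 0.4116). In Abcc3 and Cth, dKO clone 3 was the lowest clone. Over the 4 remaining libraries the log2 differences were -0.83 for Abcc3, -0.68 for Cth and -0.51 for Hagh.

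Akr1b3 (aldose reductase), Akr1b10 and Txnrd3 complete the 6, with log2 differences of -1.17, -0.80 and -0.79. All 3 lie on chromosome 6, where the median gene deviated by -0.40 (log2) in dKO clone 3 and by 0.03 to 0.19 in the other clones. Over the 4 remaining libraries the differences were -0.998 for Akr1b3, -0.48 for Akr1b10 and -0.47 for Txnrd3. After the chromosome medians were removed, their differences were -0.997, -0.63 and -0.62. The listed genes Mgst1, Akr1b8 and Gstk1 lie on the same chromosome, and the log2 difference of Gstk1 went from -0.05 to 0.11 with that step.

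The Ggt1 and theta transferase genes lie within 266.2 kb on chromosome 10, an interval with 9 listed transcripts, of which 8 were tested. Ggt1 at one end rose, Gstt3 and Gstt2 at the other lay below controls in all dKO clones, and Ggt5, Susd2, Cabin1, Ddt and Gstt1 between them overlapped. Cabin1, which spans the middle of the interval, measured 140.0 to 149.2 CPM in control and 119.4 to 156.4 CPM in dKO clones. The mu transferase genes lie within 149.1 kb on chromosome 3, and of the 7 tested there Gstm2 alone had groups that did not overlap. Over all genes 5.15% lay entirely above the controls and 5.67% entirely below. Neighbouring genes in the Ggt1 and mu intervals thus had different values, with opposite signs for Ggt1 and Gstt2. In the Akr1b interval (chromosome 6), 2 of the 4 genes tested lay entirely below the controls, and 2 of 4 in the Akr1c interval (chromosome 13). The log2 differences were -1.17 (Akr1b3), -0.61 (Akr1b8), -0.80 (Akr1b10) and -0.88 (Akr1b7). In the Akr1c interval they were -0.20 (Akr1c14), -0.50 (Akr1c13), -0.81 (Akr1c19) and -0.15 (Akr1c12). None of these passed the adjusted threshold. After the chromosome medians of each library were removed, the log2 differences were 1.94 for Ggt1, -0.75 for Gstt3 and -1.07 for Gstt2.

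**Figure D4:**
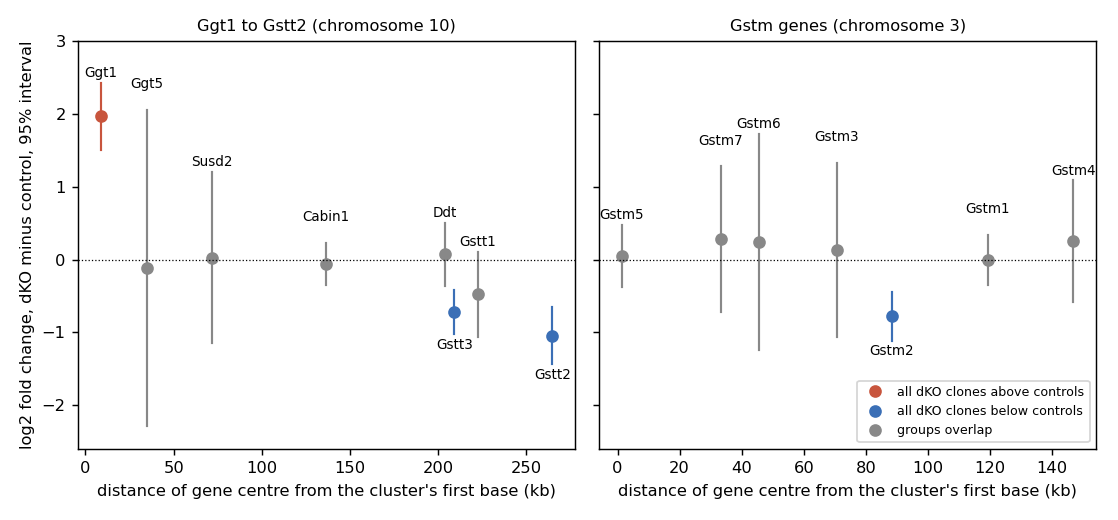
Fitted log2 fold change (y axis, with 95% intervals) of neighbouring genes against distance from the first base of the cluster in kb, for the Ggt1 to Gstt2 interval (left) and the mu transferase interval (right). Red marks groups with all dKO clones above the controls (Ggt1), blue those with all dKO clones below (Gstt3, Gstt2, Gstm2), and grey those that overlap.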

How the data were processed

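Total RNA of 6 mpkCCD clones (3 control, 3 PKA dKO; 262 ng each) was depleted of ribosomal RNA and made into stranded libraries by random priming, per the labels' protocols. GRCm38.p5, STAR 2.5.2a, HOMER 4.8, SAMtools and edgeR appear in the submitters' processing notes; the handling of strand and of multiply mapped reads is not given in those sources. The deposited read columns are a signal in which each library was scaled by the authors to a common total. In each library 1 read was worth 0.427 to 0.635 scaled reads, and with that step 100% of values came out whole (tolerance 0.01). The deposited FPKM columns served as an alternative. The authors' deposited edgeR table gives log2 fold changes, log2 CPM, p-values and FDR.

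Groups were compared with limma-trend (R 4.3.3, limma 3.58.1) on log2(scaled reads with TMM factors + 1), with TMM factors of 0.909 to 1.07 from edgeR 4.0.16; fold changes on this scale understate changes of low genes. Transcripts passing filterByExpr (minimum 10 reads, total 15) numbered 16683, and 4213 were left out; p-values were adjusted by Benjamini and Hochberg, with a threshold of 0.05. Intervals are 95%. CPM and RPKM divide recovered reads by TMM-adjusted totals. Alternatives were DESeq2 1.42.0, edgeR's quasi-likelihood test, limma-voom, other filters, pseudocounts and scalings, FPKM (pseudocount 0.1), chromosome medians removed, and left-out libraries. Sums over a class were also taken with each gene left out in turn, a choice made after seeing the data. The fitting script was tested on simulated data. The members and gene lists were chosen with earlier results of these data known. All listed genes are named, with values per clone for those with an unadjusted p under 0.05, those whose groups were apart by 1.5-fold, and the highest per length of each class, and for the 6 further pathway genes with the lowest p. Coordinates are those of the deposited table (GRCm38); exon counts and windows shared between transcripts come from GENCODE M21. Same-numbered clones have no stated link. P-values measure only the spread between these libraries.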

Additional observations from a re-analysis of the deposited data

How the results depend on the processing

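Over the 41 listed genes and 20 alternative settings, 718 of 810 fold changes kept their direction and side of the threshold, 49 kept their direction and passed it, and 43 (in 16 genes) changed sign. The number of listed genes called, 1 in the main test, was 2 with no filter, 5 at a mean of at least 1 CPM, 2 with a pseudocount of 4, 2 with edgeR's quasi-likelihood test, 8 with DESeq2, 3 with limma-voom, 4 with the deposited FPKM, 8 with the clone number as a replicate block, 9 in the 4 libraries, 7 with a term for the 2 libraries that stand apart, 3 with chromosome medians removed, and 1 to 7 when 1 library was left out. Over all genes the count was 28 in the main test, 24 with no filter and 34 at a mean of at least 1 CPM. It was 30 with a pseudocount of 4, 28 with edgeR's quasi-likelihood test, 26 with limma-voom and 21 with chromosome medians removed. Other settings gave 17 without TMM factors, 209 with DESeq2, 91 with FPKM and 196 with the replicate block. The count was 567 in the 4 libraries, 71 with the term, and 11 to 138 with 1 library left out. The cause was not tested. Clone numbers do not pair the samples: deviations of same-numbered clones correlated at -0.36, 0.64 and -0.34, and only the clones numbered 2 correlated best with their own number. The listed genes' median stayed between -0.20 and -0.11 in all settings, and 8 to 11 genes lay entirely below controls under other scalings or FPKM.

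Signs changed in genes with no call in any setting: Gstm1 (0.0057 without TMM factors, 0.0032 with quasi-likelihood, 0.0134 with FPKM), Gstp1 (0.0008 without TMM factors, 0.0083 with FPKM), Gsto1 (0.0089 in the 4 libraries), Gstk1 (0.1138 with chromosome medians removed), Hmox1 (0.0921 in the 4 libraries), Cat (0.0046 with FPKM, 0.2937 in the 4 libraries) and Cyp1b1 (0.0343 in the 4 libraries). Leaving out 1 library moved the log2 difference of Ggt7 from -0.52 to 0.31, Gsr from -0.14 to 0.36, Gpx2 from -0.68 to 0.45, Gpx4 from -0.11 to 0.037, Gstm1 from -0.083 to 0.12, Gstm5 from -0.10 to 0.13, Gstm6 from -0.099 to 0.64, Gstp1 from -0.13 to 0.10, Gstk1 from -0.18 to 0.12, Hmox1 from -0.31 to 0.053, Aldh1a1 from -0.69 to 0.23, Aldh3a1 from -0.57 to 0.36, Cat from -0.16 to 0.23, Cyp1a1 from -1.44 to 0.38 and Cyp1b1 from -0.17 to 0.061. Genes under 2 CPM rest on few reads, so their fold changes are uncertain. Mgst1 had 17 to 115 reads in control and 3 to 9 in dKO clones.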
